A study of Homo sapiens with 2 samples.

Results

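The genes described here are 43 enzymes by which the liver takes amino acids apart and turns their nitrogen into urea, with a few enzymes of the reverse or neighbouring steps. They were chosen by symbol, from a list drawn up by pathway, and 42 of the 43 had a row of their own among the 24991 genes used. The exception, AMT, the aminomethyltransferase of the glycine cleavage system, shared a row with NICN1. RNA was sequenced from PLC/PRF/5, an established human hepatocellular carcinoma line, in 2 libraries, and both cultures were kept under hypoxia. The EV library came from cells with an empty vector and the NFX1_OE library from cells made to overexpress the zinc-finger transcription factor NFX1. The labels do not give the oxygen level, the length of the hypoxia, or whether the overexpressing cells were a clone or a pool. Each group is 1 library, so no replicate spread and no test between groups could be had, and each difference compares these 2 libraries rather than the conditions.

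A hepatocyte breaks down most amino acids by removing their nitrogen, by transamination or directly as ammonia, and sending the carbon skeleton to glucose, ketone bodies or the citric acid cycle. The ammonia enters the urea cycle, which begins in the mitochondrion with CPS1 and OTC and is completed in the cytosol by ASS1, ASL and ARG1. Many of these enzymes are hallmarks of the mature hepatocyte, and several are known to be low or absent in liver tumours and in hepatoma lines. A few, such as PYCR1 and SHMT2, serve growing cells instead, by making proline or supplying one-carbon units.

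NFX1 itself had 4.21 FPKM in the EV library and 56.0 FPKM in the NFX1_OE library, 13.3 times as much, as the labels say. FPKM counts fragments relative to transcript length and sequencing depth, so it can be compared between genes of different length. The steps between low values put the NFX1_OE library at 1.15 times the depth of the EV library, with an estimated 42.0 M and 36.6 M fragments. Of 12 hepatocyte markers all had FPKM of at least 1 in a library, from 5935 and 6807 FPKM for SERPINA1 to 0.776 and 1.06 FPKM for albumin (ALB), the first value of each pair being EV. The line thus had many hepatocyte transcripts but almost no albumin. TTR, at 1.38 and 1.96 FPKM, and FGB, at 1.70 and 1.64 FPKM, were also low. The 4 fibroblast markers summed to 0.283 and 0.382 FPKM and the 3 endothelial markers to 0.0587 and 0.0565 FPKM. Of 5 blood markers, PTPRC and CD3E were listed at 0 in both libraries, and LYZ, at 49.2 and 47.9 FPKM, made up most of the sum of 49.4 and 48.4 FPKM.

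The list split into abundant, moderate and near-silent genes in the same way in both libraries. FPKM was at least 100 in both libraries for 5 members and between 10 and 100 in both for 12. Another 10 were lower but reached 1 FPKM, and 8 stayed above 0 but under 1 FPKM in both. KMO and OTC were under 1 FPKM in the EV library and listed at 0 in the NFX1_OE library, and 5 members were listed at 0 in both. The 27 members with at least 1 FPKM are called measured below, and all 27 reached that level in both libraries, so none entered through 1 library alone. The most abundant was the urea cycle enzyme ASS1, ranked 98 and 93 among all genes. At the other end UROC1, HDC, TDO2, HAAO and BHMT were listed at 0, where 3 fragments would correspond to between 0.0307 FPKM (UROC1) and 0.209 FPKM (TDO2) in the EV library.

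**Figure D1:**
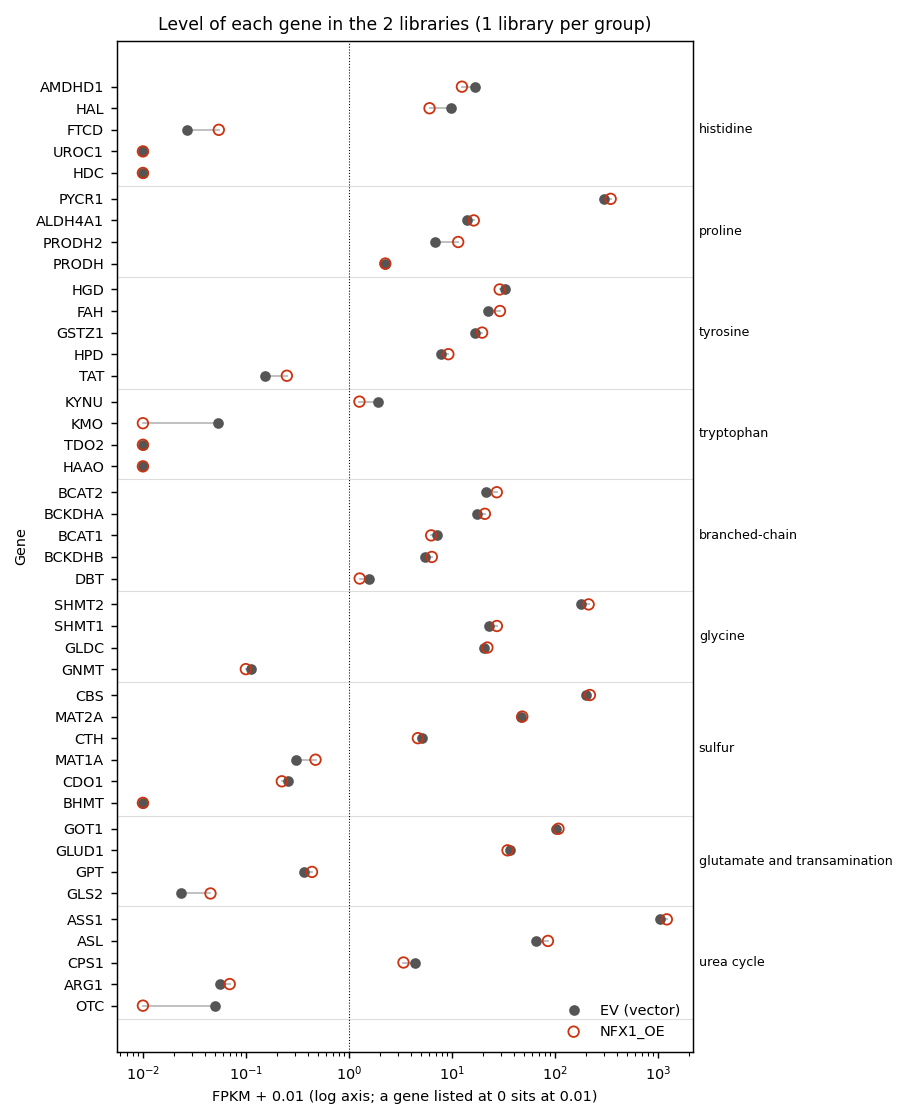
FPKM + 0.01 on a log axis for the 42 genes with a row of their own, grouped by pathway; filled points are the EV library, open points the NFX1_OE library, and the dotted line marks 1 FPKM. The 2 points of a gene lie close together next to the spread between genes, which runs from 0 to 1217 FPKM.

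Changes are given as log2((NFX1_OE FPKM + 1)/(EV FPKM + 1)), which understates the change of low genes. Of the 27 measured members 18 were higher and 9 lower in the NFX1_OE library, against 52.0% higher and 48.0% lower over all 11182 measured genes. Their median change was 0.14, against 0.01 over all measured genes. A limit of 1.5-fold was passed by 1 member upwards (PRODH2) and 1 downwards (HAL), where 0.420% of all measured genes passed it upwards and 0.215% downwards. No member passed 2-fold, where 0.107% and 0.0358% of all genes did. Exact (Clopper-Pearson) 95% intervals of each fold were computed from estimated fragments. They cover counting error only, not the spread between cultures, and their width depends on the transcript length used. The interval excluded 1 for 20 of the 27, 14 of them higher and 6 lower. Among all measured genes with a usable transcript length it excluded 1 for 47.5%, with 29.2% higher and 18.3% lower. How often it does so depends on a gene's depth, and the members were not matched to other genes on depth.

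Histidine breakdown held the lowest change of the list. HAL, histidine ammonia-lyase, which removes the amino group of histidine to give urocanate, is on chromosome 12 (96366440 to 96390143, hg19). It had 9.86 FPKM in the EV library and 6.04 FPKM in the NFX1_OE library, a ratio of 0.613 and a log2 change of -0.63. Its counting interval, from an estimated 562 and 396 fragments, was 0.538 to 0.699. AMDHD1, imidazolonepropionase, acts later on the same route and is the neighbouring gene (96337071 to 96362370). It had 16.7 FPKM in the EV library and 12.5 FPKM in the NFX1_OE library, a ratio of 0.747 with an interval of 0.669 to 0.835. Both genes of the route with measurable RNA were thus lower in the NFX1_OE library. The step between them, UROC1 (urocanase), was listed at 0 in both libraries, as was HDC, which turns histidine into histamine. FTCD, which passes the last fragment of histidine to folate, had 0.0170 and 0.0445 FPKM, a ratio equal to that of 1 and 3 fragments.

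HAL and AMDHD1 lie 4069 bases apart and are read towards each other, HAL from the minus and AMDHD1 from the plus strand. Neither shares its listed locus with another row. Within 500000 bases on either side, 5 other genes were measured, of which 3 were lower (LTA4H, ELK3 and CDK17) and 2 higher (SNRPF and METAP2); they are named for their position, after their values were seen. LTA4H, a leukotriene hydrolase next to HAL, had 27.5 and 23.5 FPKM. ELK3, an ETS-family transcription factor further on, had 8.40 and 6.68 FPKM. SNRPF, a spliceosomal protein on the AMDHD1 side, had 94.8 and 99.2 FPKM. The window was placed around the 2 histidine genes, which already had the lowest changes of the list when computed from FPKM + 1. That order depends on the added 1. By the ratio of the listed FPKM, the tryptophan gene KYNU, at 0.659, was lower than AMDHD1, at 0.747. The 2 histidine genes also had the lowest changes of the 7 genes.

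**Figure D2:**
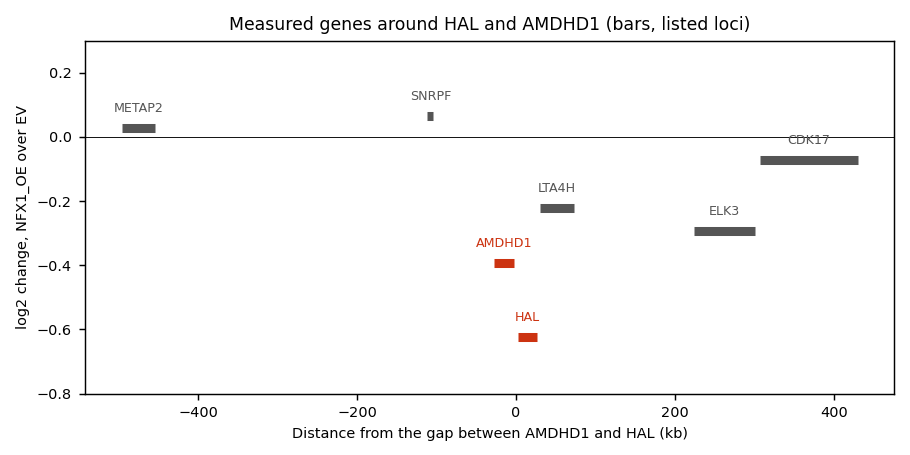
Log2 change (NFX1_OE over EV) of the 7 measured genes around the gap between AMDHD1 and HAL, against distance in kb; each bar spans a listed locus and red marks the 2 histidine genes. HAL (-0.63) and AMDHD1 (-0.39) lie below LTA4H (-0.22), ELK3 (-0.29), CDK17 (-0.07), METAP2 (0.03) and SNRPF (0.06).

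The 250 bases before the transcription start are shown for HAL and its neighbour AMDHD1, which were lower together, and for PRODH2, the member with the highest change. They are from RefSeq on GRCh38.p14, another build than the hg19 loci above, and are written 5′ to 3′ on the gene's own strand. Capitals mark ACGTG, the core of hypoxia response elements, or GTTAAT, part of the HNF1 binding site, on either strand. The windows are chr12:95996345-95996594 (minus strand) for HAL, chr12:95943081-95943330 (plus strand) for AMDHD1 and chr19:35812846-35813095 (minus strand) for PRODH2.
HAL: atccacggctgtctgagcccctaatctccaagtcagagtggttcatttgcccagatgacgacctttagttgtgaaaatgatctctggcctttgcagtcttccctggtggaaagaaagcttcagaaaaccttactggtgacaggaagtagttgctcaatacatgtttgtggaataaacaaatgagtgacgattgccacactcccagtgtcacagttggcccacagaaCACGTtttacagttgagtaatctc
AMDHD1: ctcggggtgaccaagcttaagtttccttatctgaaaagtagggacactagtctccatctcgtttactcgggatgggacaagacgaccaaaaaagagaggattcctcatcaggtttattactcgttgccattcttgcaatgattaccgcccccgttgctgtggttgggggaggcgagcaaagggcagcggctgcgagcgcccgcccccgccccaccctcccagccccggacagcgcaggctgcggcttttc
PRODH2: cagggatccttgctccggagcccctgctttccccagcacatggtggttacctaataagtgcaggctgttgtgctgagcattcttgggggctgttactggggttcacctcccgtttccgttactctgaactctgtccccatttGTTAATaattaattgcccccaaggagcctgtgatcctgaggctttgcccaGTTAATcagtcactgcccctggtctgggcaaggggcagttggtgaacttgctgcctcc
The HAL window holds 1 ACGTG core, read on the opposite strand as CACGT, and the PRODH2 window holds 2 copies of GTTAAT. The AMDHD1 window holds neither. The motifs do not overlap here. ACGTG was found in 18.7% of 27305 promoter windows of this length and in 4 of the 35 members that have both a row and a promoter entry (HAL, HPD, BCKDHA and BCKDHB). GTTAAT was found in 6.22% of all windows and in 4 of the 35 (FTCD, PRODH2, KMO and GOT1). A match is a description of the letters and not a binding site. GC content was 45.6% in the HAL window, 57.6% in that of AMDHD1 and 54.4% in that of PRODH2.

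Proline genes held the highest change of the list. PRODH2 oxidizes hydroxyproline, the amino acid released when collagen is broken down, and is on chromosome 19 (36290892 to 36304201, hg19). It had 6.80 FPKM in the EV library and 11.5 FPKM in the NFX1_OE library, a ratio of 1.69 and a log2 change of 0.68. Its counting interval, from an estimated 84 and 163 fragments, was 1.29 to 2.22. PRODH, the related enzyme that oxidizes proline, had 2.21 and 2.24 FPKM, with an interval of 0.804 to 1.28 for the fold. The ratio of PRODH2 to PRODH was therefore 3.07 in the EV library and 5.12 in the NFX1_OE library. ALDH4A1, which takes the product of PRODH on to glutamate, had 13.8 and 16.3 FPKM, a fold of 1.18 with an interval of 1.08 to 1.28. PYCR1, which makes proline and so runs in the other direction, was far more abundant, at 298 and 347 FPKM with a fold of 1.16. All 4 proline genes had the higher value in the NFX1_OE library, although PRODH differed by only 0.01 on the log2 scale.

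The tyrosine route was present from its second enzyme onwards. TAT, the liver aminotransferase that starts it, had only 0.143 and 0.240 FPKM. HPD, which makes homogentisate, had 7.89 and 9.21 FPKM, and HGD, which opens its ring, had 32.4 and 29.0 FPKM, with an interval of 0.779 to 1.02 for the fold. GSTZ1, the isomerase that follows, had 16.6 and 19.6 FPKM. FAH, the last enzyme, whose loss causes hereditary tyrosinaemia, had 22.2 and 29.2 FPKM, a fold of 1.32 with an interval of 1.21 to 1.43. Of the 4 measured genes 3 were higher and HGD was lower, with a median of 0.21.

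Of the 4 members in the tryptophan (kynurenine) route, 3 were at or near 0. TDO2, the liver dioxygenase that opens it, and HAAO, a later dioxygenase, were listed at 0 in both libraries. KMO, which hydroxylates kynurenine, had 0.0438 FPKM in the EV library and was listed at 0 in the NFX1_OE library. That is an estimated 5 and 0 fragments. KYNU, kynureninase, was the only measured member, at 1.90 FPKM in the EV library and 1.25 FPKM in the NFX1_OE library, a log2 change of -0.37. That rests on an estimated 37 and 28 fragments, and the interval of 0.388 to 1.11 for the fold includes 1. Of the 4 other measured genes of the route, 3 were higher and 1 was lower. QPRT, which leads its end product towards NAD, had 261 and 298 FPKM. AFMID, which acts after TDO2, had 17.8 and 19.0 FPKM, with an interval of 0.888 to 1.28 for the fold. The lower gene was AADAT, at 1.77 and 1.36 FPKM, with an interval of 0.579 to 0.998 for the fold. These genes were singled out after their values were seen.

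Branched-chain amino acids are first transaminated by BCAT1 in the cytosol or BCAT2 in the mitochondrion. BCAT1 had 7.22 and 6.27 FPKM, a fold of 0.868 with an interval of 0.784 to 0.964, and BCAT2 had 21.2 and 27.2 FPKM, a fold of 1.28 with an interval of 1.18 to 1.39. The 2 isoenzymes thus differed in direction, and BCAT2 was 2.94 times BCAT1 in the EV library and 4.34 times in the NFX1_OE library. The branched-chain ketoacid dehydrogenase that follows is a complex of several proteins. Its decarboxylase subunits BCKDHA and BCKDHB had 17.5 and 20.8 FPKM and 5.51 and 6.36 FPKM, while DBT, its acyltransferase core, had 1.56 and 1.26 FPKM.

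Glycine is cleaved by GLDC and AMT or exchanged with serine by SHMT1 in the cytosol and SHMT2 in the mitochondrion. GLDC, the decarboxylase, had 20.5 and 22.0 FPKM, with an interval of 0.951 to 1.22 for the fold. The row that AMT shares with NICN1 had 5.60 and 6.67 FPKM, which cannot be divided between the genes. SHMT2 had 179 and 212 FPKM and SHMT1 22.7 and 27.3 FPKM, so that both were higher in the NFX1_OE library and their ratio was nearly the same, 7.86 in the EV library and 7.78 in the NFX1_OE library. GNMT, an abundant methyltransferase of mature liver, had 0.103 and 0.0898 FPKM, the ratio that equal numbers of fragments give.

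In sulfur amino acid metabolism the form of methionine adenosyltransferase typical of mature hepatocytes, MAT1A, had 0.297 and 0.464 FPKM, while MAT2A, the form of other and growing tissues, had 46.9 and 48.1 FPKM. MAT2A was thus 158 times MAT1A in the EV library and 104 times in the NFX1_OE library. The MAT1A values rest on an estimated 18 and 32 fragments, with an interval of 0.843 to 2.93 for the fold. CBS, which joins homocysteine to serine, was abundant, at 198 and 218 FPKM, and CTH, which splits the product to cysteine, had 5.07 and 4.66 FPKM. BHMT, which returns homocysteine to methionine with betaine, was listed at 0. CDO1, the dioxygenase that oxidizes cysteine, had 0.245 and 0.213 FPKM, again the ratio that equal numbers of fragments give.

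The measured enzymes that move nitrogen through glutamate differed little between the libraries. GOT1, the cytosolic aspartate aminotransferase, had 103 and 108 FPKM, and GLUD1, glutamate dehydrogenase, had 36.7 and 34.6 FPKM. GLUD1 is nearly identical to GLUD2, at 5.70 and 5.51 FPKM, so reads may be divided between them. GPT, alanine aminotransferase, had 0.356 and 0.428 FPKM. The liver glutaminase GLS2 had 0.0135 and 0.0353 FPKM, the ratio of 1 and 3 fragments.

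The urea cycle was unevenly expressed. The cytosolic enzymes ASS1 and ASL, which build and split argininosuccinate, had 1053 and 1217 FPKM and 65.3 and 85.4 FPKM. ASL had a fold of 1.31 with an interval of 1.25 to 1.37, and ASS1 of 1.15 with an interval of 1.14 to 1.17; processed copies of ASS1 elsewhere in the genome make its level less certain. CPS1, which fixes ammonia as the first step, had 4.33 FPKM in the EV library and 3.37 FPKM in the NFX1_OE library, a fold of 0.780 with an interval of 0.634 to 0.958. OTC, the next step, had 0.0398 FPKM in the EV library, an estimated 2 fragments, and was listed at 0 in the NFX1_OE library. ARG1, which releases urea, had 0.0456 and 0.0595 FPKM, the ratio of 2 and 3 fragments. The measured enzymes thus differed in direction, with CPS1 lower and ASS1 and ASL higher in the NFX1_OE library.

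Of the members, 6 use molecular oxygen as a substrate (HPD, HGD, TDO2, KMO, HAAO and CDO1), and both cultures were hypoxic, so the data hold no comparison with normal oxygen. Only HPD and HGD were measured, with changes of 0.20 and -0.15.

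The direction of change followed the base composition of the transcripts. Of the 16 measured members whose transcript GC content lay above 50.7%, the median of all measured genes, 15 were higher in the NFX1_OE library, and of the 11 at or below it 8 were lower. Over all genes 80.0% of those above the median and 24.1% of those at or below it were higher, so the members went the way of other genes of like composition. Across the 27 members change and GC content had a Pearson r of 0.69 and a Spearman rho of 0.72, and across 10996 genes r was 0.56; all points come from the same 2 libraries, and genes are not independent replicates. AMDHD1, at 51.9% GC, was the 1 member above the median that was lower. HAL had 49.1% GC and PRODH2 61.4%. The part of base composition in each member's change was not tested.

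**Figure D3:**
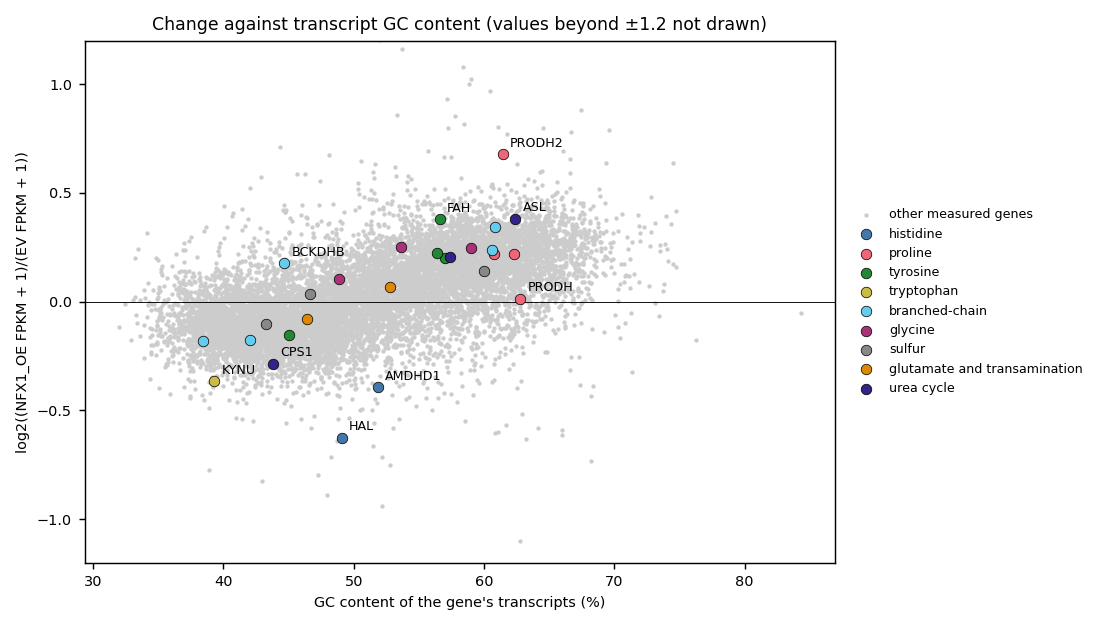
Log2 change (NFX1_OE over EV) against transcript GC content (%) for all measured genes (grey) and the 27 measured members (coloured by pathway). Members lie mostly within the grey cloud, which rises with GC content, with HAL (-0.63) and AMDHD1 (-0.39) at its lower edge and PRODH2 (0.68) at its upper edge.

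When the dependence of the change on GC content, transcript length and expression level, fitted over all genes, was subtracted (called the corrected change), the median over the members went from 0.14 to 0.01, with 14 higher and 13 lower, and the shares over all genes were 50.3% and 49.7%. No member then passed 1.5-fold, where 0.291% of genes passed upwards and 0.273% downwards. HAL stayed the lowest at -0.58, next to AMDHD1 at -0.42 and KYNU at -0.28. PRODH2 stayed the highest at 0.51, followed by BCKDHB at 0.28 and FAH at 0.25. The values of 6 members changed sign: ASS1 to -0.02, PYCR1 to -0.05, CBS to -0.09, GOT1 to -0.01 and PRODH to -0.15, and CTH to 0.01. ASL remained above 0, at 0.15, and CPS1 below it, at -0.18. Of the branched-chain aminotransferases, BCAT1 was then at -0.05 and BCAT2 at 0.16.

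**Figure D4:**
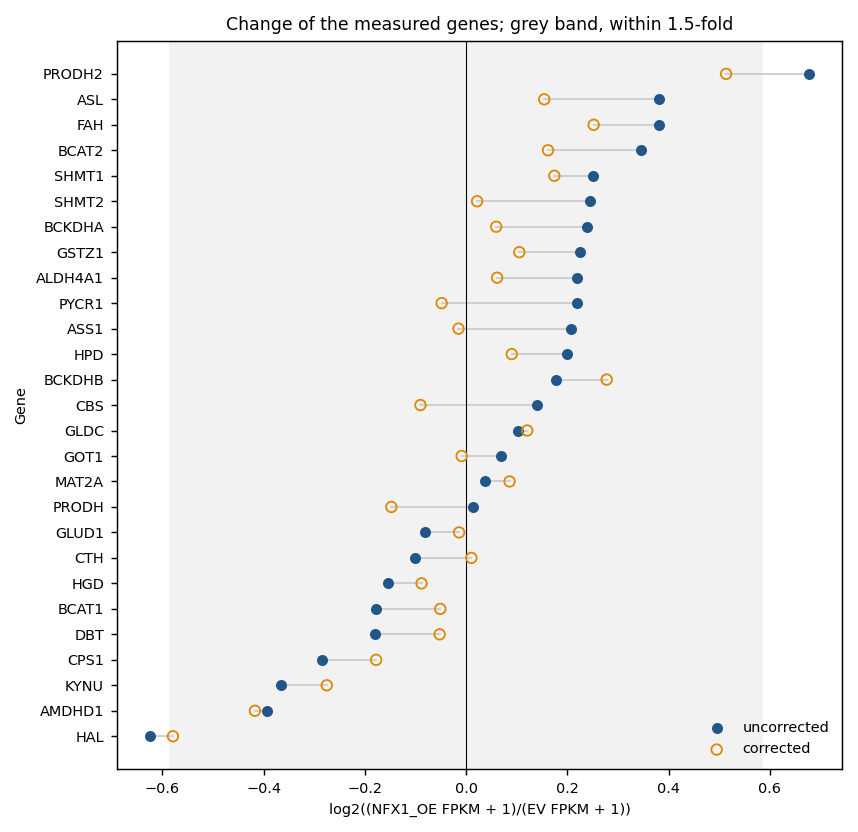
Log2 change (NFX1_OE over EV) of the 27 measured members from FPKM + 1 (filled) and corrected for base composition, length and expression (open); the grey band is 1.5-fold either way. HAL and AMDHD1 moved little (-0.63 to -0.58 and -0.39 to -0.42), while ASL moved from 0.38 to 0.15 and SHMT2 from 0.25 to 0.02.

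Of 84 other genes of the same pathways, 83 had a row and 68 were measured, 39 higher and 29 lower, with a median change of 0.06. By the change from FPKM + 1, only MCEE, methylmalonyl-CoA epimerase of the route from valine and isoleucine, passed 1.5-fold. It had 1.97 and 3.87 FPKM with an interval of 1.26 to 3.18 for the fold, a change of 0.71 and a corrected change of 0.82. Of the other histidine genes, HNMT, which methylates histamine, had 1.25 and 1.44 FPKM, and MTHFD1, a folate enzyme, had 39.3 and 42.4 FPKM. The interval for the fold of HNMT, 0.722 to 1.88, includes 1, as does that of MTHFD1, and the listed locus of MTHFD1 is shared with 9 other rows. ALDH1L1 was listed at 0. HOGA1, which acts after PRODH2 in hydroxyproline breakdown, had 0.824 FPKM in the EV library and 1.72 FPKM in the NFX1_OE library, a change of 0.58 and a corrected change of 0.54. Having passed the level filter only in the library where it was higher, HOGA1 had to differ in that direction. BHMT2, a relative of BHMT that uses S-methylmethionine, had the lowest change of the sulfur genes, at 29.7 and 22.3 FPKM, a change and a corrected change of -0.40. In the urea cycle ARG2, the mitochondrial arginase, had 30.1 and 25.1 FPKM, far above ARG1.

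In the tyrosine, tryptophan and glycine pathways the other genes with the largest changes were PCBD1, CCBL1 and GCAT. PCBD1, which recycles the cofactor of phenylalanine hydroxylase, had 158 and 190 FPKM. CCBL1, a kynurenine aminotransferase, had 2.76 and 3.94 FPKM. GCAT, which cleaves a product of threonine to glycine, had 24.4 and 29.0 FPKM.

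**Figure D5:**
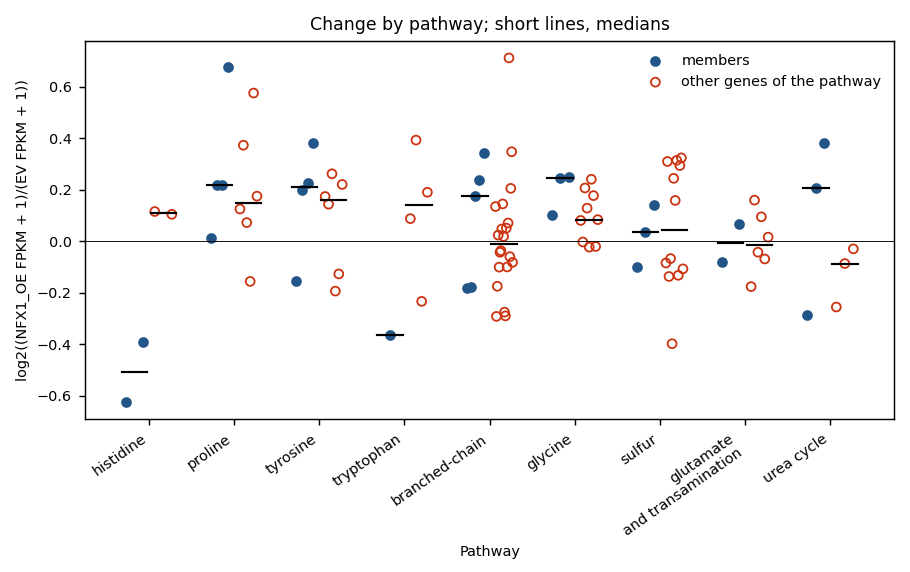
Log2 change (NFX1_OE over EV) by pathway for the measured members (filled) and the other measured genes of each pathway (open), with short lines at the medians. Members and other genes overlap in most pathways; in the histidine group the 2 members (-0.63 and -0.39) lie below the 2 other genes (0.12 and 0.10).

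The authors' deposited table tested 29 of the 42 members and marked none as significant. In the authors' deposited table the smallest p-values among members were 0.00485 for PRODH2 and 0.00565 for HAL, the only 2 under 0.05, where 1.45% of 14994 tested rows were under it. All members tested had q = 0.999 or more in the authors' deposited table, and these values come from 1 library per group, so they do not measure the spread between cultures.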

How the data were processed

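RNA of 2 PLC/PRF/5 cultures was measured, and the genotype label gave each group. TopHat2 2.1.0 and Cufflinks 2.2.1 were used with hg19, per the submitters' processing notes. Settings, annotation and strandedness are details not given in the sources used here, and neither is the scaling between libraries. FPKM values were deposited by the authors for both libraries, with a log2 fold change, p-value, q-value and a score (the test statistic), per the file headers. The table has 28658 rows; 1651 lacked a symbol, 492 held several, and neither kind was used. A repeated symbol was represented by its row of highest mean. The listed locus is shared by neighbouring rows for 10 members, so it can be wider than the gene, and overlapping reads may be divided between such genes.

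Changes used a pseudocount of 1, and a gene was measured if it reached 1 FPKM in either library; no p-value was computed. Equal whole fragments in low rows gave the relative depth, and 14 values of intronless olfactory receptor genes gave the fragments per library. Fragments per gene used the median length of GENCODE 29 transcripts, matched by symbol without coordinates. Where that length is short of the real one, the interval is wider than it should be. Where it is longer than the real one, the interval is too narrow and can wrongly exclude 1. The corrected change came from cubic splines fitted to genes within 2-fold, for 98.3% of measured genes. Only this correction was tried on simulated data, with a planted GC trend and planted changes larger than that of any measured member. The depth, the fragment estimates and the counting intervals were not tried in this way. All 43 members were to be named, with the other pathway genes past 1.5-fold and the largest change per pathway. A gene that this rule selects is not reported here, though it stayed in the counts and medians. Members and lists were chosen with earlier results of these data known. The alternatives tried covered the pseudocount, the FPKM minimum, scaling, repeated rows, the fold limit and the authors' fold change. Software was scikit-learn 1.9.0, scipy 1.17.1, pandas 2.3.3, numpy 2.4.6 and matplotlib 3.10.9 under Python 3.11.15.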

Additional observations from a re-analysis of the deposited data

How the results depend on the processing

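With 1 library per group, no setting leaves out a replicate, and depth limits the members under 1 FPKM, each with an estimated 37 fragments or fewer per library. No paired analysis was possible because each group has 1 library. The sign of a member's change cannot depend on a pseudocount of 0.1 or 5 or a minimum of 0.1 or 5 FPKM. The authors' deposited log2 fold change compares the same FPKM values, so its sign was fixed too. Summing rows changed nothing, because no member had a repeated row. Centring on the median gene could have turned a sign, but no measured member changed sign under it. The minimum of 5 FPKM kept only 23 of the 27 members, 17 higher and 6 lower, with a median of 0.20. Correction for GC content, length and expression turned 6 of 27 signs, took the members' median from 0.14 to 0.01 and left 0 members past 1.5-fold in either direction. A pseudocount of 5 and a 2-fold limit also left 0 higher and 0 lower. By the authors' deposited log2 fold change 2 members were past 1.5-fold on the low side, HAL and KYNU. For the other pathway genes, 2 were past the limit upwards with a pseudocount of 0.1, and 0 with a pseudocount of 5 or a minimum of 5 FPKM. The median of all genes moved by less than 0.1 under each setting.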
